A study of Mus musculus with 33 samples.

Results

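DLX1 binding in the embryonic mouse ganglionic eminences was mapped by ChIP-seq at 3 ages, e11.5, e13.5 and also e16.5, and its peaks are described here. The members were all DLX1 peaks on chromosomes 1 to 19 and X of the 3 deposited lists, with an interval that was listed more than once counted once. This gave 29613 DLX1 peaks of the 129372 peaks listed for DLX1, DLX2 and DLX5 together. The e11.5 list held 4337 of these, the e13.5 list 8459 and the e16.5 list 16817. Overlapping peaks of different ages were joined into 20110 sites, and every site was placed in 1 of 7 classes by the ages at which it carried a peak.

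DLX1 is a homeodomain transcription factor of progenitors and young neurons of the ventral forebrain. Together with its relative DLX2 it is required for the differentiation and migration of GABAergic neurons. Homeodomain proteins bind short AT-rich sequences, both at promoters and at distal enhancers. Among histone marks, trimethylation of histone H3 at lysine 4 (H3K4me3) marks promoters, monomethylation at the same lysine (H3K4me1) marks enhancers and the flanks of promoters, acetylation of lysine 27 (H3K27ac) marks active promoters and enhancers, and trimethylation of lysine 27 (H3K27me3) marks regions under Polycomb control.

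The whole series held 33 samples, and the question taken up here was how DLX1 binding at the 3 ages is shared, and in which chromatin it lies. The DLX1 libraries came from wild-type embryos of the CD1 strain, with 1 library at each age, and chromatin was fixed and sheared by sonication. Histone marks came from wild-type and Dlx1/2-/- embryos of the same strain at e13.5 only, with 1 library per mark and genotype, from native chromatin cut with micrococcal nuclease. The knockout embryos lack both Dlx1 and Dlx2, so the 2 genes cannot be told apart in it. The tissue joined the lateral, medial and caudal eminences, with dividing and postmitotic layers together, and in such bulk tissue fewer bound cells and less binding per cell cannot be told apart. The DLX1 antibody was made in rabbit by the laboratory. The protocol names dissection at e13.5 only, while the sample labels give all 3 ages, and the labels were followed. The e13.5 DLX1 sample had an input of its own name, whereas the inputs at e11.5 and e16.5 were named for the tissue and age alone. The peak names carry a tag that the sources used here do not explain, so whether a list stands for a single library or for merged ones is not given.

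With 1 library per age there was no replicate check and no test between ages. All intervals below are exact Clopper-Pearson 95% intervals, which cover counting error only, and peaks of 1 library are not replicates. RNA of the e13.5 eminences was counted in 4 wild-type and 4 knockout embryos, from 14.4 M to 117 M counts per library. Dlx1 lay between 116.5 and 129.3 CPM (counts scaled to the total of the library) in the wild-type embryos and between 21.3 and 26.3 CPM in the knockout embryos. Dlx2 lay between 15.3 and 28.8 CPM in wild type and between 1.01 and 1.52 CPM in knockout, so both targeted genes separated the genotypes without overlap. Reads of Dlx1 remained in the knockout, and which part of the gene the allele deletes was not looked at here. In wild type, Gad1 and Gad2, which make GABA, averaged 121.2 ± 4.81 and 157.2 ± 6.55 CPM (SD, n = 4), and Lhx6, a factor of medial eminence interneurons, averaged 78.5 ± 8.02 CPM. Neurod6, a marker of cortical glutamatergic neurons, averaged 272.2 ± 40.1 CPM and the red cell gene Hbb-y 1772 ± 113.8 CPM in the same libraries. The other cortical genes were lower, with Emx1 at 10.6, Tbr1 at 20.01 and Eomes at 27.6 CPM on average, and the red cell gene Hba-x was at 7.07 CPM. The part of such cells in the ChIP tissue was not tested.

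Later lists were longer, but not evenly over strength. The strength of a peak is the authors' fold enrichment at its summit, used here to describe and rank peaks within a list. Relative to e11.5, the e13.5 list held 1.95 times and the e16.5 list 3.88 times as many peaks. At a fold of 5 or more the lists held 1449, 4998 and 5863 peaks in the order of age, so by that measure e13.5 held 3.45 times as many as e11.5 and stood close to e16.5. At a fold of 10 or more the numbers were 127, 625 and 833. At a fold of 20 or more the 3 ages differed less, with 59, 70 and 95 peaks. At a fold of 40 or more they held 27, 23 and 21 peaks. Fold cuts across ages depend on the scale, since each list has a background of its own, given below. By fragments at the summit, a scale added after seeing the data, the lists held 1449, 6475 and 13366 peaks of at least 20 fragments. On that scale e13.5 did not stand close to e16.5. Fragments are not set over the background, which was 3.17, 3.76 and 4.76 fragments by age. A fixed number of fragments is therefore a looser cut at each later age. The e13.5 heights were used as its folds give them, although its p-values came nearer to summits 1 fragment lower, as given below. They held 45, 61 and 147 of at least 100, and 10, 10 and 17 of at least 250. On both scales the lists were nearer in number among the strongest peaks than over the whole, and which age had most of the strongest turned with the scale. The median fold was 4.31, 5.25 and 4.34 in the same order.

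**Figure D1:**
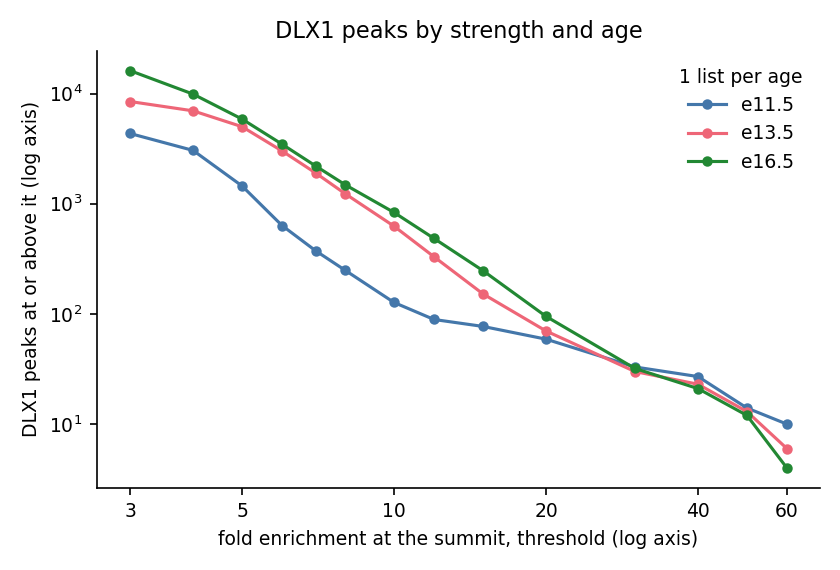
Number of DLX1 peaks (log axis) at or above a given fold enrichment at the summit (log axis), with 1 line for each age. At a fold of 10 the lists hold 127, 625 and 833 peaks, while at 20 they hold 59, 70 and 95.

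The fold values also told how each list was scaled. At e11.5 and e16.5 all, and at e13.5 99.9% of summit folds, were whole multiples of 1 step, within 0.01 steps. The steps were 0.2397, 0.210 and 0.174 from the earliest age to the latest. A whole number of fragments at the summit plus 1, over 1 constant background plus 1, gives such steps. That background came to 3.17, 3.76 and 4.76 fragments at the 3 ages, which is 1.19 times the e11.5 value at e13.5 and 1.501 times at e16.5. The weakest peaks had summits of 12, 14 and 15 fragments and the highest 341, 345 and 368. A Poisson tail over that background gave the deposited −log10 p, within 0.001, for 100% of the compared summits at e11.5 and e16.5. At e13.5 it did so for 0%, with a median difference of 0.805, or of 0.0204 when the summit was taken 1 fragment lower. No local level of the input is therefore visible in these folds, and the part of the input at any site was not tested.

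Most DLX1 peaks of e11.5 were found again, and more of them at e16.5 than at e13.5. Of the 4337 peaks of e11.5, 53.4% (interval 51.9% to 54.9%) overlapped an e13.5 peak by at least 1 bp and 78.1% (76.8% to 79.3%) an e16.5 peak. Of the 8459 peaks of e13.5, 70.0% (69.0% to 71.0%) were found at e16.5. Seen from the later list, 27.7% of e13.5 peaks and 19.98% of e16.5 peaks lay on an e11.5 peak, and 34.8% of e16.5 peaks lay on an e13.5 peak. So 2022 peaks of e11.5 were lost by e13.5 and 6112 peaks of e13.5 were new, and from e13.5 to e16.5 the numbers were 2539 lost and 10966 new. A longer list offers more chances of overlap, so these shares depend on list length as well as on binding. Where both ages were limited to a −log10 q of 10 or more, 14.6% of e13.5 peaks and 10.8% of e16.5 peaks lay on an e11.5 peak.

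Strength went with being found again. Of the strongest 10% of e11.5 peaks, 96.5% were found at e13.5 and 98.2% at e16.5, against 31.9% and 61.2% of the weakest 10%. Of the strongest 10% of e16.5 peaks, 91.8% were present at e13.5, against 7.26% of the weakest. The e13.5 list did not follow this slope. Of its strongest 10% of peaks 93.3% were found at e16.5, then 60.4% of those ranked in the middle, between folds of 4.83 and 5.25, and 71.5% of the weakest 10%. The same dip was seen against e11.5, from 54.0% through 20.6% to 26.2%. The e13.5 list thus held many peaks of middling strength that neither other age shared.

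**Figure D2:**
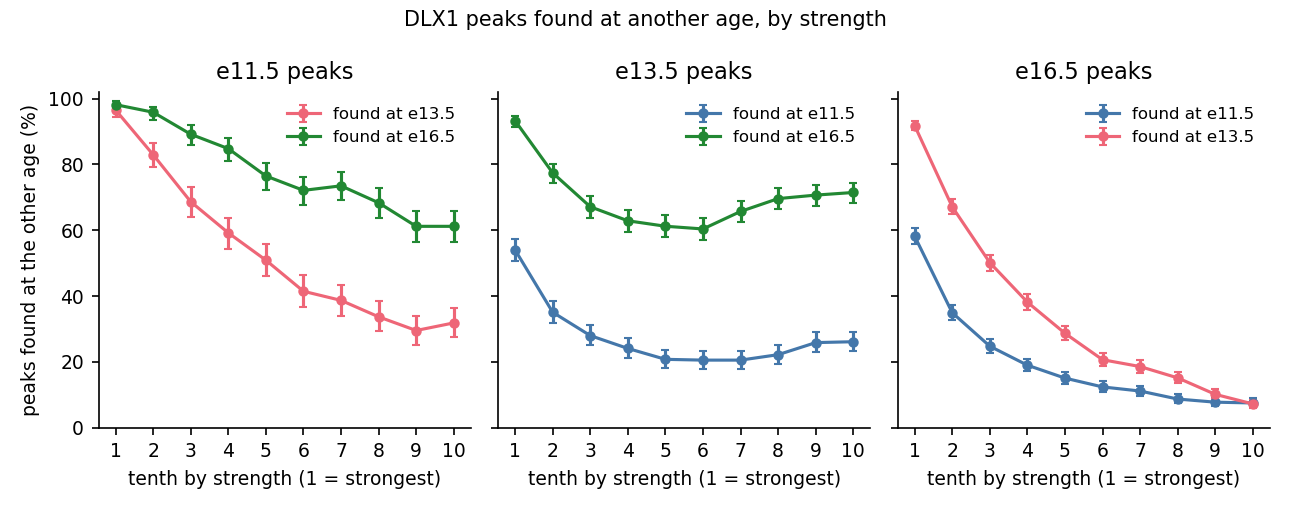
Share of DLX1 peaks (%) of each age that overlap a peak of another age, for 10 bins of equal size from the strongest (1) to the weakest (10). Bars are exact 95% intervals for counting error. The e11.5 and e16.5 peaks show a fall with strength, whereas the e13.5 peaks dip in the middle, to 60.4% found at e16.5.

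Some e11.5 peaks were missing at e13.5 and listed again at e16.5. There were 1164 of these, or 26.8% of the e11.5 list, and 92.9% of them lay in an H3K4me3 peak. Another 2223 (51.3%) were present at all 3 ages, and 65.6% of these carried H3K4me3. Only 92 (2.12%) were found at e13.5 and not at e16.5, and 858 (19.8%) were in neither later list. The peaks that skipped e13.5 had a median fold of 4.08, against 5.03 for those present throughout, 3.84 for those in neither later list and 4.31 over the whole e11.5 list.

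The sites fell unevenly into the age classes. Sites bound at e16.5 alone made up 48.9% (9838 of 20110), those of e13.5 and e16.5 17.9% (3594), and those of e13.5 alone 12.1% (2441). Sites of all 3 ages made up 10.9% (2191), those of e11.5 and e16.5 5.46% (1097), those of e11.5 alone 4.27% (858) and those of e11.5 and e13.5 0.453% (91). Sites shared by all ages were strong, with median folds of 5.03, 5.88 and 7.12 from e11.5 to e16.5. Their median width was 520 bp, against 230 bp at sites of e13.5 alone. A site spans all its joined peaks, so sites of more ages are wider by construction. As single peaks, e13.5 peaks found at e16.5 had a median width of 294 bp, and those not found 231 bp. Sites of e13.5 alone had a median fold of 5.25, the same as the e13.5 peaks at sites shared with e16.5. Sites of e11.5 alone and of e16.5 alone were weaker, with median folds of 3.84 and 3.99. Sites of e13.5 alone lay on chromosome X in 2.42% of cases (59 of 2441), against 1.18% of all sites (238 of 20110). The other classes lay between 0% and 1.37%.

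Sets of equal size were compared to take list length away. The 4337 strongest peaks of each age were used, which is the whole list at e11.5. The ages e13.5 and e16.5 shared most, with 51.3% (49.8% to 52.8%) of the e13.5 set on an e16.5 peak of its set. The share was 43.1% (41.6% to 44.6%) between e11.5 and e16.5 and 32.0% (30.7% to 33.5%) between e11.5 and e13.5. Neighbouring ages were therefore not always the more alike: e11.5 shared more with e16.5 than with e13.5. The 1000 strongest peaks gave the same order, at 51.1%, 44.1% and 36.9%. Among the 300 strongest, e11.5 shared 46% with e13.5 (40.3% to 51.8%) and 43.3% with e16.5 (37.6% to 49.2%), whose intervals overlap, and e13.5 and e16.5 shared 60.7%.

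The histone marks of the wild-type eminences at e13.5 set the ages apart. A histone peak was used where its −log10 q was at least 5, and these peaks covered 3.11% of the genome span for H3K4me3, 6.32% for H3K4me1, 1.70% for H3K27ac and 2.37% for H3K27me3. H3K4me3 was found at 76.0% (74.7% to 77.3%) of e11.5 peaks, 35.4% (34.4% to 36.4%) of e13.5 peaks and 52.9% (52.1% to 53.6%) of e16.5 peaks. H3K27ac followed the same order, at 56.2%, 21.1% and 35.2%, and so did H3K27me3, at 38.6%, 14.0% and 21.4%. H3K4me1 was more even, at 62.8%, 47.6% and 54.2%. With only histone peaks of −log10 q of at least 10 the H3K4me1 shares were 26.5%, 16.9% and 16.8%, and with all deposited H3K4me1 peaks e16.5 came first, at 83.7%. All deposited H3K4me3 peaks gave 97.6%, 65.8% and 83.3%, in the same order as above. All shares lay well above the share of the genome covered. Since the marks were measured at e13.5 alone, they describe the e13.5 state of sites that were bound earlier or later.

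The order was the same where every set had the same length. In the sets of equal size H3K4me3 marked 76.0% of e11.5, 26.1% of e13.5 and 45.2% of e16.5 peaks, and H3K27ac marked 56.2%, 13.6% and 28.7%. H3K4me1 was then nearly level between e11.5 and e16.5, at 62.8% and 59.3%, and lower at e13.5, at 42.9%. Among peaks with a fold of at least 10, H3K4me3 was found at 87.4% of 127 peaks at e11.5, 32% of 625 at e13.5 and 44.7% of 833 at e16.5. The share of peaks with neither H3K4me3 nor H3K4me1 was 7.66%, 42.2% and 26.9% in the order of age. It was 50.9% among the 4337 strongest of e13.5, higher than in its full list, while at e16.5 it was 27.1%. The e13.5 age also differed from the other 2 in its named input and in how its p-values relate to its summit heights, given above, and their part in this was not tested.

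By age class the contrast was wider. Of sites bound at e11.5 and e16.5 but not e13.5, 93.0% carried H3K4me3, and 75.9% carried H3K27ac. Of sites of e11.5 alone 81.4% carried H3K4me3, and of sites of all 3 ages 65.9%. Of sites of e16.5 alone the share was 53.4%, of those of e13.5 and e16.5 31.0%, and of those of e13.5 alone 12.5% (11.2% to 13.9%). H3K4me1 without H3K4me3, the pattern of a distal enhancer, was most frequent at sites of e13.5 and e16.5 (28.6%) and of all 3 ages (25.5%). It was found at 4.28% of sites of e11.5 and e16.5. Of the sites of e13.5 alone 76.5% (74.8% to 78.2%) had neither mark, against 40.4% of the sites of e13.5 and e16.5 and 28.6% of the sites of e16.5 alone. H3K27ac was found at 6.31% of e13.5-only sites.

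**Figure D3:**
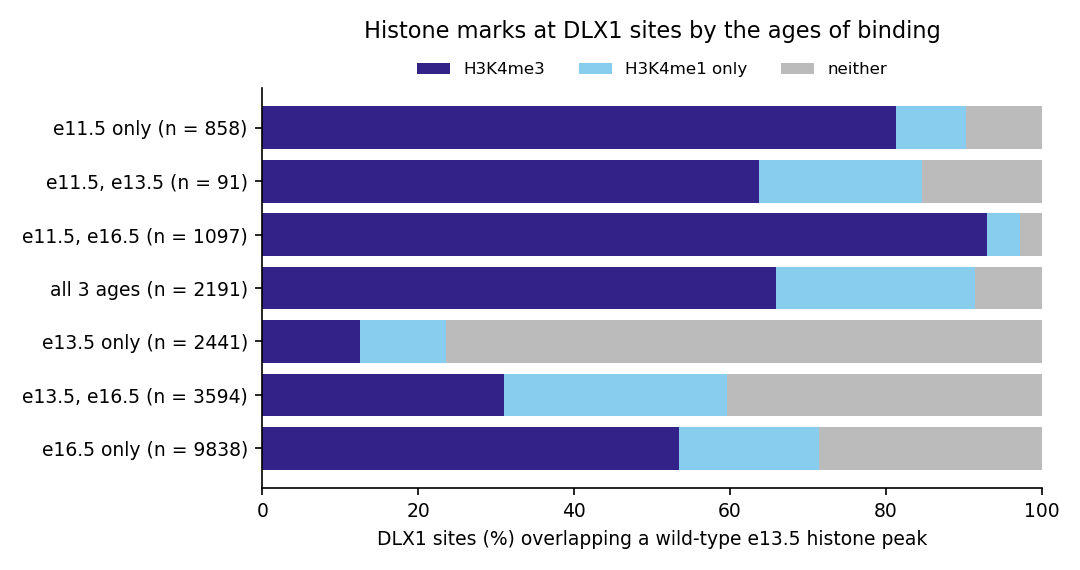
Share of DLX1 sites (%) in each of the 7 age classes that overlap a wild-type e13.5 H3K4me3 peak, an H3K4me1 peak without H3K4me3, or neither. Sites of e11.5 and e16.5 show H3K4me3 at 93.0%, and 76.5% of the sites of e13.5 alone have neither mark.

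Being found again went with the chromatin of the peak, and not in the same way at each step. From e11.5 to e13.5, 81.8% (78.8% to 84.6%) of peaks with H3K4me1 alone were kept, but only 46.0% (44.3% to 47.7%) of peaks with H3K4me3, and 65.7% of those with neither. From e13.5 to e16.5, 87.7% (86.4% to 88.8%) of H3K4me3 peaks and 84.8% (83.1% to 86.4%) of H3K4me1-only peaks were kept, against 47.3% (45.6% to 48.9%) of peaks with neither mark. From e11.5 to e16.5 the shares were closer together, at 77.0%, 86.5% and 70.8%. The loss at e13.5 was thus on the H3K4me3 side, and the loss after e13.5 was on the side of peaks without either mark. The median fold of e13.5 peaks with neither mark, 5.67, was above that of e13.5 peaks with H3K4me3, 4.83.

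Among the 2191 sites bound at all 3 ages, the fold differed between the ages by chromatin state. Folds are set over the background of each library and fragments are not, so both are given side by side. At the 558 sites with H3K4me1 alone the median fold was 4.79, 7.45 and 8.07 from the earliest age to the latest. At the 1444 sites with H3K4me3 it was 5.03, 5.25 and 6.77. By fragments the medians were 19, 34.5 and 45.5 at the former and 20, 24 and 38 at the latter. The fold was higher at e13.5 than at e11.5 at 88.5% of the H3K4me1-only sites, with a median log2 ratio of 0.60. It was higher at 55.5% of the H3K4me3 sites, with a median log2 ratio of 0.07. By fragments the shares were 92.8% and 69.9%. Between e11.5 and e16.5 the fold at least doubled at 421 of the 2191 sites and at least halved at 6. H3K4me1-only sites made up 175 of the 421. By fragments, 1050 sites at least doubled, 343 of them with H3K4me1 alone. The difference between e11.5 and e13.5 was thus larger at shared sites with H3K4me1 alone than at those with H3K4me3 on both scales.

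The strongest shared sites were promoter-type sites that ranked near the top of each list. Sites were ranked by their worst rank over the 3 lists. The leading site, at chr17:27340765-27342401 in mm9, had folds of 78.4, 72.0 and 64.0 from the earliest age to the latest, and ranked 3, 2 and 1 in the lists. The site at chr9:119231018-119232306 had folds of 80.3, 72.6 and 62.0. The site at chr2:164704039-164705672 had folds of 70.5, 62.1 and 62.5. All 3 lay in H3K4me3 peaks, with a −log10 q between 28.6 and 47.5, and had widths from 1289 to 1637 bp. The site at chr1:88421274-88423305 had folds of 66.4, 57.5 and 58.8, and the site at chr8:72425170-72426282 had 62.3, 56.7 and 54.2. At each of the 5 the fold was highest at e11.5, whereas the number of fragments at the summit was highest at e16.5. At the leading site the summit held 326, 342 and 368 fragments by age, and at the fifth 259, 269 and 311. The order of the ages at these sites thus turns with the scale.

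DLX2 was listed at a minority of these leading sites at e11.5 and e13.5, and at most of them at e16.5. Of the 25 strongest shared DLX1 sites, 25 lay in H3K4me3 peaks. Of the same 25, DLX5 had a peak at 24, 12 and 24 from the earliest age to the latest. DLX2 had a peak at 7 of the 25 at e11.5 (28%, 12.1% to 49.4%), at 7 at e13.5 and at 16 at e16.5. Further down the ranking DLX2 was present more often: at 86.3% of the 300 strongest sites at e11.5 (81.9% to 90.0%), and at 88.7% and 94.3% at e13.5 and e16.5. The share of sites in all 6 lists of DLX2 and DLX5 was 24% of the leading 25 and 81.3% of the leading 300. H3K4me3 marked 59.3% of those 300.

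The strongest sites of a single age were far weaker. At e11.5 alone the leading 3 sites each had a fold of 6.95, with 28 fragments at the summit: chr7:52471909-52472165, chr9:123782115-123782452 and chrX:84483559-84483903. The site on chromosome 7 lay in an H3K4me3 peak of −log10 q 33.6. At e13.5 alone the leading sites were chr6:19282417-19282724 with a fold of 11.96 and 56 fragments, and chr14:29764592-29764916 and chr2:21700166-21700450, both with a fold of 11.8 and 55 fragments. The sites on chromosomes 6 and 2 touched no deposited peak of any of the 4 marks, whatever its q, and the site on chromosome 14 had H3K4me1 at a −log10 q of 4.52, below the threshold used. At e16.5 alone chr5:107138074-107138397 had a fold of 13.4, chr16:95374558-95374908 of 13.2 and chr10:104538795-104539161 of 12.3, and the site on chromosome 5 had H3K4me1 at 7.64. Such sites ranked 344 or lower in their own list.

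Peak width was alike in the full lists, and in the strongest sets it was largest at e16.5. The median width was 278 bp at e11.5, 267 bp at e13.5 and 292 bp at e16.5 over the full lists. In the sets of equal size it was 278 bp (274 to 281), 296 bp (293 to 299) and 392 bp (386 to 397). The e11.5 set is its whole list, down to a fold of 3.12, while the later sets reach down to 5.25 and 5.55. Among the 1000 strongest peaks of each age the medians were 388.5, 368 and 496.5 bp. The order of e11.5 and e13.5 thus turned with the size of the set. Among e13.5 peaks of the equal-size set, those with neither mark were narrowest, at 269 bp, against 365 bp for those with H3K4me3. At e16.5 the same groups measured 340 bp and 434 bp.

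In sets of equal size DLX1 peaks lay closer together at e11.5 than later, whereas over the full lists they lay closest at e16.5. The e11.5 set is its whole list, down to a fold of 3.12, while the later sets reach down to 5.25 and 5.55. In the sets of equal size 25.6% (24.3% to 27.0%) of e11.5 peaks had another peak of their set within 10 kb, against 11.1% (10.2% to 12.1%) at e13.5 and 13.2% (12.2% to 14.2%) at e16.5. The median gap to the nearest peak was 66.7 kb, 140.9 kb and 115.1 kb. By mark, the ages differed at H3K4me3 peaks and at peaks with neither mark. For H3K4me3 peaks the shares were 28.2%, 19.9% and 16.9%, and for peaks with H3K4me1 alone they were 13.1%, 13.4% and 13.55%, with intervals that overlap. For peaks with neither mark they were 27.1%, 5.57% and 6.64%. Without clusters of 10 or more peaks the 3 ages had 23.6%, 9.46% and 12.4%, in the same order. Without them the shares were 26.7%, 17.6% and 16.3% for H3K4me3 peaks and 17.1% (12.98% to 21.9%), 3.96% and 5.19% for peaks with neither mark. Over the full lists the shares were 25.6%, 19.5% and 31.5% and the median gaps 66.7, 63.0 and 28.1 kb, for lists of different length.

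**Figure D4:**
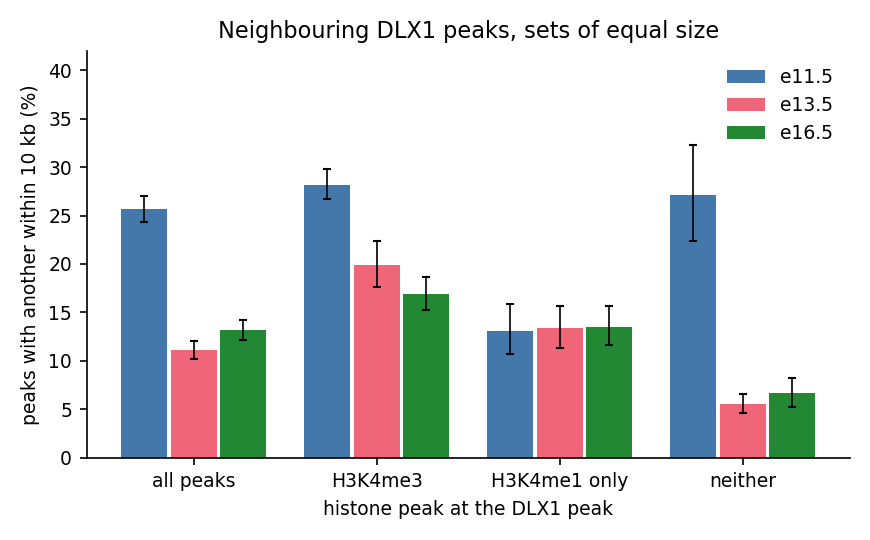
Share of DLX1 peaks (%) with another peak of the same set within 10 kb, in the 4337 strongest peaks of each age, for all peaks and by the e13.5 histone mark at the peak. Bars are exact 95% intervals. The share for H3K4me1-only peaks is level across ages, from 13.1% to 13.55%, and for peaks with neither mark it is 27.1% at e11.5 and 5.57% at e13.5.

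The 2 clusters with most peaks lay at the same places at each age. A stretch of 157.4 kb on chromosome 2, chr2:77707732-77865132, held 36, 60 and 46 peaks by age, and peaks covered 75.8%, 70.6% and 73.7% of it. Only 2 of its e11.5 peaks lay in H3K4me3. The other factors had many peaks in the same stretch, with 29, 82 and 50 DLX2 peaks and 71, 121 and 43 DLX5 peaks. The next cluster, chr9:2999875-3038388 at the start of the assembled sequence of that chromosome, held 21, 20 and 21 DLX1 peaks, and between 21 and 24 peaks in each of the lists of DLX2 and DLX5. Whether reads of the inputs pile up in these stretches was not tested. Longer clusters seen at e16.5 lay at chr13:83854667-83890108, with 20 peaks against 13 at each earlier age, and at chr12:50473141-50502023, with 18 peaks against 4 and 4. In the latter 17 of 18 peaks carried H3K4me3, and DLX2 had 9, 19 and 34 peaks there from e11.5 to e16.5.

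DLX1 sites were largely shared with DLX2 and DLX5, with 1 exception. At the same age 57.9%, 67.3% and 81.0% of DLX1 peaks overlapped a DLX2 peak from e11.5 to e16.5. The DLX2 lists grew as well, with 8341, 17126 and 32610 peaks. Seen from DLX2, 29.7%, 32.7% and 41.0% of its peaks lay on a DLX1 peak of the same age. With DLX5 the shares were 71.3%, 26.2% and 77.9%, where the DLX5 list of e13.5 was by far the shortest, with 2951 peaks. Over any age, 96.9% of sites of all 3 ages were in a DLX2 list and 98.3% in a DLX5 list, and 0.548% were in neither. Of the sites of e13.5 alone 62.4% (60.4% to 64.3%) were in no list of DLX2 or DLX5 at any age. The shares were 25.2% for sites of e11.5 alone, 11.3% for sites of e16.5 alone and 7.74% for sites of e13.5 and e16.5. The e13.5-only sites thus had the highest share of the 7 classes in no list of the other factors. Still, 35.3% of them were in a DLX2 list and 19.99% in a DLX5 list. Their lack of DLX1 peaks at the other ages is set by the definition of the class.

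DLX1 had a lower H3K4me3 share at e13.5 than its relatives. With 2951 peaks of each list, H3K4me3 marked 74.0%, 25.3% and 44.6% of DLX1 peaks in the order of age. For DLX2 the shares were 46.6%, 41.0% and 33.4%, and for DLX5 74.6%, 46.2% and 32.7%. From e11.5 to e13.5 in these sets, 33.4% of DLX1 peaks, 73.1% of DLX2 peaks and 39.4% of DLX5 peaks were found again. From e13.5 to e16.5 the shares were 50.9%, 71.5% and 53.3%. Each of these values rests on 1 library, and the difference between the factors was not tested.

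Regions where H3K4me3, H3K4me1 or H3K27ac was higher in wild type than in Dlx1/2-/- eminences held e13.5 DLX1 peaks more often than other regions. For each mark the authors deposited lists of regions higher in wild type, higher in knockout and common, ranked by a log10 likelihood ratio, from 1 library per genotype. The list names do not say which genotype is which, and the direction was read from the peak lists: 80.8% to 97.6% of regions taken as higher in wild type carried their stronger peak in wild type. Of all H3K4me1 regions 2.36% were listed as higher in wild type and 1.53% as higher in knockout. Of the e13.5 DLX1 peaks in such regions 6.21% (5.52% to 6.96%, 277 of 4457) lay in a region higher in wild type and 0.112% (5 of 4457) in a region higher in knockout. For H3K27ac the background was 1.79% and 1.39%, and the DLX1 peaks gave 3.45% (111 of 3218) and 0.311% (10 of 3218). For H3K4me3 the background was 0.966% and 4.52%, and the DLX1 peaks gave 2.99% (111 of 3711) and 1.75% (65 of 3711). In these 3 marks the share of DLX1 peaks was over the background on the wild-type side and under it on the knockout side. Median lengths of regions higher in wild type, common and higher in knockout were 533, 900 and 465 bp for H3K4me1. They were 497.5, 901 and 458 bp for H3K27ac and 512, 1167 and 481 bp for H3K4me3. The background counts regions whatever their length, and the part of length was not tested. Where the region had to cover the DLX1 summit, the wild-type shares were 4.51% for H3K4me1, 1.85% for H3K27ac and 2.42% for H3K4me3, so that of H3K27ac came near its background. In the equal-size set of e13.5 they were 8.27%, 6.79% and 5.43%.

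H3K27me3 needed the autosomes alone. Over all chromosomes 14.1% of its regions were listed as higher in wild type and 1.82% as higher in knockout, but 91.3% of the former lay on chromosome X. Over all chromosomes e13.5 DLX1 peaks lay in 0.684% of the regions higher in wild type, 3.85% of the common ones and 3.17% of those higher in knockout. On the autosomes 1.42% were higher in wild type and 2.12% in knockout. Of the autosomal e13.5 DLX1 peaks in H3K27me3 regions 2.70% lay in regions higher in wild type and 1.62% in regions higher in knockout.

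Counted from the regions, the contrast was as clear. On the autosomes 31.2% (26.3% to 36.4%) of the 343 H3K4me3 regions higher in wild type held an e13.5 DLX1 peak, against 9.60% of common regions and 3.71% of regions higher in knockout. Of all autosomal H3K4me3 regions 0.943% were higher in wild type and 4.52% in knockout. Over all chromosomes the regions higher in wild type were shorter than common ones, with medians of 512 bp and 1167 bp. For H3K4me1 the shares were 9.57%, 3.35% and 0.265%, with 2.38% of autosomal regions higher in wild type and 1.54% in knockout. For H3K27ac they were 16.1%, 7.74% and 1.86%, with 1.81% and 1.4%. For H3K27me3 they were 6.07% (4.04% to 8.71%), 3.87% and 3.18%, with intervals that overlap. Loss of a mark and loss of the cells that carry it cannot be told apart in this bulk tissue.

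**Figure D5:**
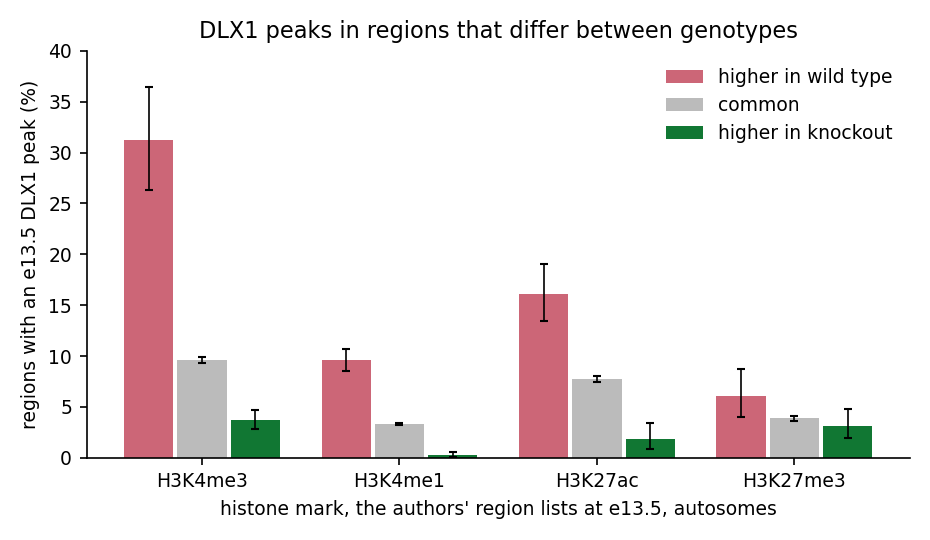
Share of autosomal regions (%) that hold an e13.5 DLX1 peak, for 4 histone marks and the authors' lists of regions higher in wild type, common, and higher in Dlx1/2 knockout. Bars are exact 95% intervals for counting error. For H3K4me3 the shares are 31.2%, 9.60% and 3.71%.

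The age classes differed in this respect. Of sites of e13.5 and e16.5 in an H3K4me1 region, 8.41% (7.32% to 9.61%) lay in a region higher in wild type. The share was 4.74% for sites of e16.5 alone, 4.49% for those of e13.5 alone, 4.14% for those of all 3 ages and 1.60% (0.645% to 3.27%) for those of e11.5 alone, beside 2.36% of all H3K4me1 regions. For H3K27ac, with 1.79% of all regions, it was 4.34% (3.39% to 5.46%) at sites of all 3 ages and 3.43% at sites of e13.5 and e16.5, against 0.390% (0.106% to 0.996%) at sites of e11.5 and e16.5. The highest share was thus at sites of e13.5 and e16.5 for H3K4me1 and at sites of all 3 ages for H3K27ac. Wider sites overlap more regions, and median widths were 520 bp for all 3 ages and 393 bp for e11.5 and e16.5. They were 347 bp for e13.5 and e16.5, and 237, 230 and 261 bp for e11.5, e13.5 and e16.5 alone. The part of width in these shares was not tested. In sets of equal size 2.63% of e11.5, 8.27% of e13.5 and 9.17% of e16.5 peaks in H3K4me1 regions lay in a region higher in wild type, and the e11.5 value was near the 2.36% of all regions.

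A small group of sites lay in regions higher in wild type for both H3K27ac and H3K4me1. There were 50 of these among all 20110 sites, where 179 lay in such regions for H3K27ac and 574 for H3K4me1. Of all regions, 1.79% for H3K27ac and 2.36% for H3K4me1 were higher in wild type. Of the 50 sites, 20 were bound at all 3 ages and 12 at e13.5 and e16.5, classes that made up 10.9% and 17.9% of all sites. Their median widths were 520 and 347 bp, and the part of width was not tested. The following sites were chosen after their values were seen, as the strongest of the 20 and of the 12. The site chr2:71373570-71374814 had folds of 8.39, 21.0 and 26.6 at the 3 ages, and lay in regions higher in wild type for all 4 marks. Whether the knockout embryos still hold the DNA of this site was not looked at here. The site chr2:77716955-77724454, in the stretch of chromosome 2 with most peaks, had folds of 11.51, 21.2 and 17.7. The site chr1:128287633-128288225 had 4.55, 17.0 and 22.4, with H3K4me1 at a −log10 q of 5.61 and H3K4me3 at 1.36. All 3 were in each of the 6 lists of DLX2 and DLX5. Among sites of e13.5 and e16.5, chr3:32823074-32823411 had folds of 10.5 and 7.81, chr6:118791919-118792278 of 8.81 and 12.8, and chr11:87845350-87845696 of 7.98 and 10.4. H3K4me1 at these 3 lay between 6.85 and 8.94 in −log10 q. Each of the 3 sites of all ages was higher at both later ages than at e11.5 on either scale, with summits of 34, 99 and 152 fragments at the first and 18, 80 and 128 at the third, while the second had 47 at e11.5 and 100 at e13.5.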

How the data were processed

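ChIP-seq peaks of DLX1, DLX2 and DLX5 and of 4 histone marks, and RNA read counts, were taken as deposited by the authors. The submitters' processing notes name Trim Galore, BWA 0.7.16a, STAR 2.4.2a, SAMtools, MACS2 and deepTools, with build mm9, and give them no roles. Each deposited peak carries a fold enrichment ratio and the −log10 of p and q, per the file contents, and the position of the summit. The deposited region lists carry a log10 likelihood ratio as their score, per the file headers. The histone lists hold peaks down to a −log10 q of 0, so a minimum of 5 was set. The deposited RNA counts per gene symbol are unnormalized, and CPM was computed from each library's total. Without a genome or annotation of mm9, the peaks are given neither gene names nor sequences.

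Peaks were called shared at 1 bp of overlap and neighbouring at gaps up to 10 kb. Equal-size sets held the 4337 strongest peaks by −log10 q. Intervals are exact binomial at 95% (scipy 1.17.1 in Python 3.11.15). The interval functions were checked on simulated data, and 6 of 6 checks recovered the known answers. Named sites are the 5 sites of all ages with the best worst-rank, the 3 of highest −log10 q of each single age, and the clusters with most peaks, passing over chromosome 18. The members and lists were chosen with earlier results of these data known. The number of reads per ChIP library is unknown from these files. Input files and contigs outside chromosomes 1 to 19 and X were not used.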

Additional observations from a re-analysis of the deposited data

Results flagged for a closer look

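A few DLX1 peaks lay outside chromosomes 1 to 19 and X, in sequence that the comparisons left out. The lists held 34, 35 and 44 of them from the earliest age to the latest, each above 3, which is a rule for flagging and not a test. Most were on unplaced sequence, with 21, 18 and 27 peaks at the 3 ages, and 4, 4 and 3 were on the mitochondrial genome, which lies outside the nucleus. These counts have no control sample beside them.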

How the results depend on the processing

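Results that follow are values without a test, and an alternative counts as moved where it left the exact interval of the value reported. Ratios of list length count as moved beyond 1.5 times. Of 268 alternative values 193 moved and 75 did not. H3K4me3, H3K27ac and H3K27me3 kept the order of ages (e11.5, e16.5, e13.5) in 6 of 6 settings, and H3K4me1 in 4 of 6: e16.5 came first with all histone peaks, and e13.5 passed e16.5 at a −log10 q of at least 10. These counts include the reported setting. The order of shared sets was kept in 4 of 4 settings, counting the reported setting and the ranking by fold, which gives the same sets. That order turned between e11.5 and the later ages among the 300 strongest peaks, at 46% and 43.3%. With 50% of both peaks covered, the kept shares were 43.7% (e11.5 at e13.5), 56.7% (e11.5 at e16.5), 22.4% (e13.5 at e11.5), 60.3% (e13.5 at e16.5), 14.6% (e16.5 at e11.5) and 30.3% (e16.5 at e13.5). With summits within 100 bp they were 46.3%, 65.4%, 23.9%, 64.7%, 16.8% and 32.2%, and with a −log10 q of at least 10 at both ages 73.8%, 90.2%, 14.6%, 61.4%, 10.8% and 38.0%. With a fold of at least 5 at both ages, a setting chosen after seeing the data like the others at that fold, those that moved were 62.7% (e11.5 at e13.5), 18.5% (e13.5 at e11.5), 55.8% (e13.5 at e16.5), 19.3% (e16.5 at e11.5) and 47.2% (e16.5 at e13.5). In equal-size sets, the 1000 strongest shared 36.9% between e11.5 and e13.5, and with 50% of both peaks covered the shares were 27.1%, 31.6% and 47.7%. Median widths of the 1000 strongest were 388.5, 368 and 496.5 bp. Neighbours within 5 kb were found for 22.0%, 8.09% and 9.15% of peaks, within 50 kb for 44.3%, 28.6% and 31.9%, and without clusters of 10 or more peaks for 23.6% at e11.5 and 9.46% at e13.5. H3K4me3 was at 97.6%, 65.8% and 83.3% with all histone peaks, 66.2%, 26.7% and 45.0% at a −log10 q of at least 10, and 70.3%, 26.9% and 46.0% for DLX1 peaks with a fold of at least 5. In equal-size sets it was at 26.1% and 45.2% at the later ages. H3K4me1 was at 78.0%, 68.0% and 83.7%, then 26.5%, 16.9% and 16.8%, with the summit covered 60.5%, 46.5% and 52.1%, in equal-size sets 42.9% and 59.3%, and at a fold of at least 5 42.8% and 57.3%. Of e13.5 peaks whose summit lay in a region of the genotype comparison, the regions higher in wild type held 2.42% for H3K4me3, 4.51% for H3K4me1 and 1.85% for H3K27ac, and those higher in knockout 1.05% for H3K4me3. In equal-size sets, a setting chosen after seeing the data, these were 5.43%, 8.27%, 6.79% and 1.13%, and 6.18% for H3K27me3 higher in wild type. With 50% of both peaks covered, DLX2 was at 40.7%, 48.8% and 62.6% and DLX5 at 50.7%, 22.3% and 64.6% of DLX1 peaks. At a fold of at least 5 the e13.5 list was 3.45 times the e11.5 list. At 20 fragments or more, also chosen after seeing the data and a looser cut at each later age, the later lists were 4.47 and 9.22 times the e11.5 list. Causes were not tested. Ranking by fold gave the same sets, since both ranks follow the same summit height. No paired analysis was possible because these results come from no test and each ChIP condition has 1 library. The unknown read depth limits all counts of peaks.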

Other observations

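Sites where H3K4me3 and H3K27me3 peaks overlap the same DLX1 site were most frequent, as a share of H3K4me3 sites, at sites of e11.5 alone and of e11.5 and e16.5. This pair of marks is known from promoters of developmental genes that are held poised. Among H3K4me3 sites of e11.5 alone 54.6% (50.8% to 58.3%) also carried H3K27me3, and among those of e11.5 and e16.5 52.8% (49.7% to 55.9%). Over all H3K4me3 sites it was 39.3%, and at the 58 of e11.5 and e13.5 39.7%. The share was 42.9% at sites of all 3 ages, 37.3% at sites of e16.5 alone, 33.7% at sites of e13.5 alone and 23.9% (21.4% to 26.5%) at sites of e13.5 and e16.5. At a −log10 q of at least 10, H3K27me3 was counted over all sites of a class only. It was then at 15.4% of sites of e11.5 and e13.5 and 13.1% of sites of e11.5 alone. Sites of all 3 ages had 9.27% and those of e11.5 and e16.5 had 9.12%, so the latter no longer stood out. H3K27ac was found at 81.4% of H3K4me3 sites of e11.5 and e16.5 and at 48.9% of those of e13.5 and e16.5. Both H3K27 marks were listed at 44.3% of H3K4me3 sites of e11.5 alone, and marks on the same copy of a site cannot be told apart here from marks on copies in different cells. Over all H3K4me3 sites the share with both was 32.1%.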
